A study of Mus musculus with 12 samples.

Results

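The 37 genes described here encode the enzymes of cholesterol and fatty acid synthesis that SREBP transcription factors are known to drive, together with the SREBPs and the proteins that control them. They were chosen by gene symbol from the table of expression values, which lists 17007 genes, and all 37 symbols were found in it. The sterol arm has 19 genes, from *Acat2* and *Hmgcs1* to *Dhcr7*, plus the sterol carrier *Stard4*. The fatty acid arm has 13 genes, from *Acly* to *Lpin1*, and 5 genes (*Srebf1*, *Srebf2*, *Scap*, *Insig1* and *Insig2*) are regulators. RNA-Seq was performed on 12 mouse livers or liver tumors in 4 groups of 3. Normal livers (NL) came from C57BL/6 wild-type mice that received no plasmid. The other 3 groups were c-MYC/MCL1/RictorKO Tsc2KO hepatocellular carcinomas (HCC), raised by hydrodynamic injection of mice with floxed *Rictor* and *Tsc2* (*Rictor* fl/fl and *Tsc2* fl/fl), with a mix of c-MYC, MCL1 and Cre plasmids, so that all tumor groups carried the same oncogenes and both deletions, in the hepatocytes that took up plasmid. The tumor-bearing mice were gavaged with vehicle, with MLN0128 (an inhibitor of the mTOR kinase, and so of mTORC1 and mTORC2) or with everolimus (a rapalog, a partial inhibitor of mTORC1). By the labels, each drug was given at 1 mg/kg/day, 6 days a week for 3 weeks from day 6 after injection, and mice were killed at 3.7 weeks. Another description of the RNA-Seq mice has a treatment of 3 days, and which length applies to these libraries is not settled here. No group had tumors with *Rictor* or *Tsc2* intact. NL therefore differed from vehicle tumors in transformation, plasmids, deletions, strain alleles and gavage at the same time, and these cannot be told apart.

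SREBPs are made as membrane proteins of the endoplasmic reticulum. SCAP escorts them to the Golgi, where they are cut to release the active factor, and INSIG proteins hold SCAP back when sterols are plentiful. The factor encoded by *Srebf2* is known mainly for sterol genes and that encoded by *Srebf1* for fatty acid genes. In liver, mTORC1 is a known activator of this pathway, and *Insig1* is itself a target of SREBP. Because messenger RNA only was measured, nothing here reports on the cutting of SREBP proteins or on lipid levels.

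SREBPs bind sterol elements and E-boxes, usually beside a site for the factor NF-Y, so the promoters of the genes were searched for 3 short motifs. RefSeq promoters (GRCm38.p6, 250 bases before to 50 bases after the start site) were on hand for 30 of the 37 genes, 39 promoters in all. *Fads1*, *Fdft1*, *Fdps*, *Scd1*, *Scd2*, *Sqle* and *Stard4* had no entry. The NF-Y box CCAAT, on either strand, was found for 14 of 15 sterol genes, 6 of 10 fatty acid genes and 4 of 5 regulators, and for 41.1% of the 27025 genes with a promoter (25 of the 39 promoters, against 37.4% of all 32851). The E-box CACGTG was found for 3 of 15, 1 of 10 and 2 of 5, against 8.09% of all genes and 7.15% of all promoters. The sterol element core TCACNCCAC, on either strand, was found for 1 of 15 sterol genes (*Hmgcs1*), for none of the other 15 promoter-bearing members, and for 1.44% of all genes and 1.24% of all promoters. A match is a string of letters and not a shown binding site. The stretches below hold these motifs in some of the genes named in the results that follow. They lie upstream of the annotated gene, run 5′ to 3′ on the gene's strand, and have the 3 motifs in capitals, with the NF-Y box also read on the other strand as ATTGG. For *Hmgcs1*, *Mvk*, *Nsdhl*, *Hsd17b7*, *Fasn* and *Insig1* they are chr13:119690102-119690322 (+), chr5:114444084-114444268 (+), chrX:72918400-72918517 (+), chr1:169969262-169969382 (-), chr11:120824590-120824649 (-) and chr5:28071184-28071328 (+).
Hmgcs1: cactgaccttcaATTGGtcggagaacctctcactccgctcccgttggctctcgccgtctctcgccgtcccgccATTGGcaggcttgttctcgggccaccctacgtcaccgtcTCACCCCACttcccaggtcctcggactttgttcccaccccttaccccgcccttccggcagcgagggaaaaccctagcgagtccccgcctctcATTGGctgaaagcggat
Mvk: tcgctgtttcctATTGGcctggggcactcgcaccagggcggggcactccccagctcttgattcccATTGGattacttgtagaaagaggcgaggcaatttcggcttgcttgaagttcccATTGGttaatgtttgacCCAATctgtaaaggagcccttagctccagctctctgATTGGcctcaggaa
Nsdhl: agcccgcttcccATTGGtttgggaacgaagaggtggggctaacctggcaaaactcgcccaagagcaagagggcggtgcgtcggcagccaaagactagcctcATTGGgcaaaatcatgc
Hsd17b7: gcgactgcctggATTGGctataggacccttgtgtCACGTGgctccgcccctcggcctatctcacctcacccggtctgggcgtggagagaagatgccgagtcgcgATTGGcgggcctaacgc
Fasn: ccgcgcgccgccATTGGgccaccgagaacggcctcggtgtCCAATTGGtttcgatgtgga
Insig1: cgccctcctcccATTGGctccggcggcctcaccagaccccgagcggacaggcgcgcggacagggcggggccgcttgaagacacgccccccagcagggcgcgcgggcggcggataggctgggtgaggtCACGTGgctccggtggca
*Mvk* holds 5 NF-Y boxes in the stretch shown, *Hmgcs1* 3 beside its sterol element, and *Fasn* 3, of which 2 overlap. *Msmo1* has 3 NF-Y boxes and *Cyp51* has 1, but the stretches that hold them overlap an annotated first exon and are not shown.

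Levels are FPKM, which are scaled to exon length and to library size, so they can be set side by side between genes. The libraries hold 17196870 to 25186466 reads, as recovered from the values. The authors' per-library scaling divides by effective library sizes of 0.585 to 0.595 times the reads in NL and 1.10 to 1.37 times in tumors, which raises NL values against tumor values. *Rictor* ranged from 1.65 to 2.57 FPKM in NL and from 1.05 to 2.21 in tumors, and *Tsc2* from 4.5 to 5.32 in NL and from 2.01 to 3.96 in tumors. Reads from undeleted exons and from cells without Cre count toward both. MLN0128 replicates 1 and 2 held *Xist* RNA (191 and 155 FPKM, at most 0.0699 in the other libraries) and were at 0 for the Y-linked genes *Kdm5d*, *Uty*, *Ddx3y* and *Eif2s3y*, which the other 10 libraries held, so sex was not balanced between the groups. For the sterol arm, NL replicate 1 stood apart: it was the highest of its group for 19 of 19 genes, at a median of 2.14 times the mean of the other NL libraries, whereas it was the highest for 29.3% of all genes tested and for 5 of 13 fatty acid genes. Vehicle replicate 2 was the lowest of its group for 10 of 13 fatty acid genes. A gene is called changed at an adjusted p under 0.05 in limma's moderated test over 14397 genes, and all 37 genes passed the filter on low values. All fold changes are differences of log2(FPKM + 1), which understate changes of genes near 1 FPKM.

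**Figure D1:**
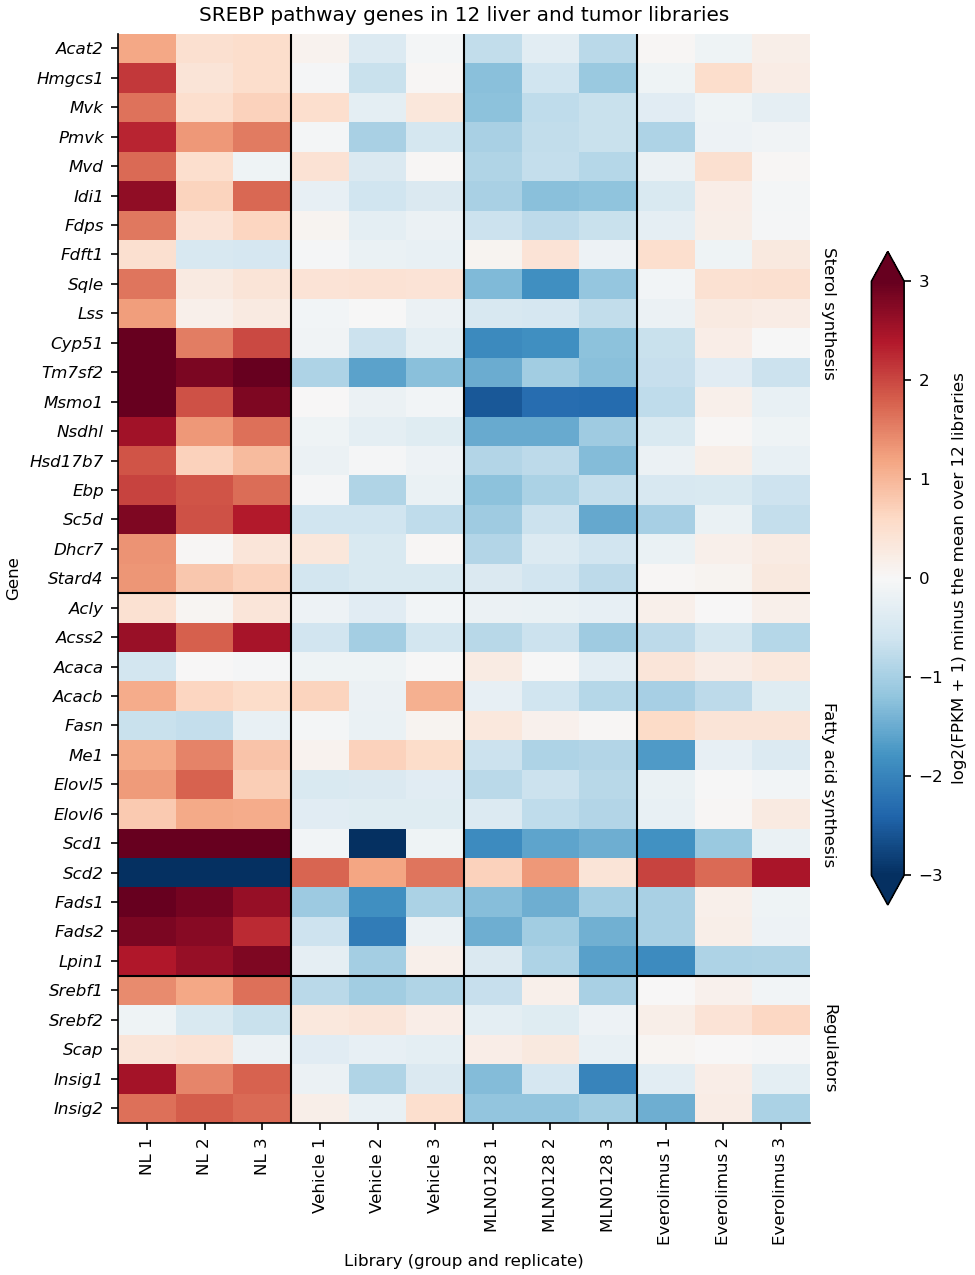
Heat map of the 37 genes (rows, by arm) in 12 libraries (columns, by group and replicate), colored by log2(FPKM + 1) minus the gene's mean over all libraries, with colors cut at 3 in either direction. NL libraries are the highest for most rows, *Scd2* is the reverse, and the MLN0128 columns are the lowest for most sterol rows.

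Whether HCC keeps the lipid synthesis program of liver was asked by comparing vehicle tumors with NL. Most genes of the sterol arm were lower in the tumors, with *Tm7sf2*, *Sc5d*, *Msmo1* and *Cyp51* furthest below liver. In the fatty acid arm 8 of 13 genes fell, *Scd1* the furthest, while *Fasn* and *Scd2* rose. Of the 37 genes, 27 fell, 3 rose and 7 did not pass. Of the 14397 genes tested, 33% were called lower and 36% higher. On the sum of the 19 sterol genes, NL libraries held 1362, 631 and 769 FPKM and vehicle tumors 292, 223 and 263.

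In the sterol arm 15 of 19 genes fell and none rose. The median log2 fold change was -1.29, beside 0.06 over all genes tested. In 14 of the 19, all vehicle libraries lay below all NL libraries, which held for 35.1% of all genes tested. Against a fold change of at least 1.5 (limma's treat test, called for 32.7% of genes in either direction), 10 of the 19 fell. *Tm7sf2*, a sterol C14 reductase of the post-lanosterol steps, had 51.8, 35.7 and 42.6 FPKM in NL and 1.71, 0.712 and 1.17 in vehicle tumors. Its log2 fold change of -4.34 ± 0.19 (SE, adjusted p = 1.09e-08) was the largest of the arm. *Msmo1*, the C4-methylsterol oxidase, had 129, 41.2 and 78.1 FPKM in NL and 10.4, 8.98 and 9.61 in vehicle tumors (log2 fold change -2.83 ± 0.33 SE, adjusted p = 1.42e-05). The groups did not overlap for *Tm7sf2* or *Msmo1*, although NL libraries differed among themselves by more than 3 times for *Msmo1*. *Lbr*, the other C14 reductase, is on a wider list and went the other way. It had 5.18, 4.17 and 4.97 FPKM in NL and 14.3, 15.6 and 12.7 in vehicle tumors (1.40 ± 0.22), so the drop of *Tm7sf2* is not a drop of the whole step.

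*Sc5d*, the lathosterol oxidase, had 152, 82 and 114 FPKM in NL and 13.6, 13.5 and 12 in vehicle tumors (-3.02 ± 0.27). *Cyp51*, lanosterol demethylase, had 173, 62.4 and 84.5 in NL and 19.1, 12.8 and 16.6 in vehicle tumors (-2.53 ± 0.35). *Ebp*, the sterol isomerase, had 106, 96.3 and 82.9 in NL and 24.5, 12.9 and 21.7 in vehicle tumors (-2.25 ± 0.21). These enzymes act after lanosterol is made, and none of their vehicle values reached an NL value. *Nsdhl*, the C4 decarboxylase, went from 65.5, 27.6 and 35.5 FPKM to 9.7, 8.53 and 8.08 (-2.08 ± 0.26). *Hsd17b7*, the 3-ketosterol reductase, went from 40.8, 17.4 and 21 FPKM to 9.14, 10.1 and 9.27 (-1.29 ± 0.26). *Pmvk*, the phosphomevalonate kinase, went from 57.3, 28.6 and 34.2 FPKM to 10.5, 5.12 and 7.29 (-2.23 ± 0.29). Each of these drops also left the groups apart. *Idi1*, which isomerizes isopentenyl diphosphate, went from 122, 30.1 and 63.2 FPKM to 15.4, 11.9 and 13.4 (-2.11 ± 0.37). *Stard4*, a cytosolic carrier of cholesterol, went from 62.7, 43.7 and 40 FPKM to 16.4, 17.6 and 17.4 (-1.43 ± 0.16).

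The 5 other sterol genes that fell (*Acat2*, *Hmgcs1*, *Mvk*, *Fdps* and *Lss*) had log2 fold changes from -1.24 to -0.66. The 4 that did not pass were *Mvd* (-0.67 ± 0.38), *Dhcr7* (-0.62 ± 0.30), *Sqle* (-0.34 ± 0.31) and *Fdft1* (0.01 ± 0.26). *Sqle*, squalene monooxygenase, a rate-controlling step, had 41.7, 15.9 and 17.5 FPKM in NL and 17.7, 17.9 and 17.6 in vehicle tumors, so the tumors lay inside the NL range. *Fdft1*, squalene synthase, ranged from 33.3 to 66.3 FPKM in NL and from 40.4 to 46 in vehicle tumors. *Fdps*, farnesyl diphosphate synthase, was listed at only 0.496 to 4.47 FPKM in NL and vehicle libraries, and shares stretches of at least 95% identity with 4 other annotated genes, so its level is uncertain. *Acat2*, *Idi1*, *Fdft1* and *Me1* share such stretches with 2 other genes each and *Hmgcs1*, *Tm7sf2*, *Acaca*, *Elovl6* and *Scap* with 1, and their levels carry the same limit. Without NL replicate 1, 13 sterol genes fell and their median was -0.94.

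In the fatty acid arm 8 of 13 genes fell, 2 rose and 3 did not pass, with a median log2 fold change of -1.37. The 2 stearoyl-CoA desaturases, which put the double bond into saturated fatty acids, were exchanged. *Scd1*, the liver form, had 529, 755 and 725 FPKM in NL and 44.9, 5.13 and 43.9 in vehicle tumors (log2 fold change -4.83 ± 0.65 SE, adjusted p = 3.99e-05). *Scd2*, which adult liver hardly uses, had 1.17, 1.71 and 1.44 FPKM in NL and 166, 111 and 150 in vehicle tumors (5.86 ± 0.25, adjusted p = 7.44e-09). Every vehicle library was above every NL library for *Scd2* and below for *Scd1*, and vehicle replicate 2 had the lowest *Scd1* of all 12 libraries. *Scd2* made up 0.198 to 0.226% of the *Scd1* plus *Scd2* level in NL and 77.4 to 95.6% in vehicle tumors. *Scd1* transcripts hold stretches of at least 95% identity with *Scd2* and *Scd3*, the longest of 592 bases, so some reads could be split between them.

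*Fads1* and *Fads2*, the desaturases that make highly unsaturated fatty acids, fell together. *Fads1* had 206, 177 and 149 FPKM in NL and 10.6, 5.85 and 11.7 in vehicle tumors (-4.14 ± 0.29). *Fads2* had 485, 458 and 323 in NL and 43.8, 15 and 59.7 in vehicle tumors (-3.57 ± 0.43). Vehicle replicate 2 was again the lowest library for both. *Acss2*, which makes acetyl-CoA from acetate, went from 22.2, 12.3 and 20.5 FPKM to 1.57, 0.891 and 1.65 (-3.0 ± 0.21). *Lpin1*, a phosphatidate phosphatase of glyceride synthesis, went from 80.1, 92.4 and 106 FPKM to 11.7, 6.47 and 16.1 (-2.99 ± 0.36). The elongases fell less. *Elovl5* went from 86.8, 122 and 59 FPKM to 25.3, 25.5 and 27.5 (-1.68 ± 0.20), and *Elovl6* from 23.7, 30.6 and 30.1 to 10.3, 10.1 and 10.2 (-1.37 ± 0.16).

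On the deposited scale, the enzymes that build the saturated chain stayed closest to liver. This ranking depends on the scaling, since *Fasn*, *Acly* and *Acaca* were called higher on plain library totals. *Fasn*, fatty acid synthase, ranged from 26.1 to 37.1 FPKM in NL and from 37.6 to 45.8 in vehicle tumors and rose by a log2 fold change of 0.47 ± 0.15 (adjusted p = 0.0131). *Acly*, ATP citrate lyase, ranged from 46.9 to 61.5 in NL and from 35.4 to 42.7 in vehicle tumors (-0.47 ± 0.12, adjusted p = 0.00431). *Acaca*, the cytosolic acetyl-CoA carboxylase, had a log2 fold change of 0.11 ± 0.17, *Acacb*, its mitochondrial counterpart, -0.24 ± 0.30, and *Me1*, malic enzyme, a source of NADPH, -0.71 ± 0.32, and none of these 3 passed. Without NL replicate 1 or 2 or vehicle replicate 3, 1 fatty acid gene rose in place of 2.

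Of the regulators, *Srebf1* had 63, 52.5 and 74.2 FPKM in NL and 12.6, 10.5 and 11.8 in vehicle tumors (log2 fold change -2.34 ± 0.24 SE, adjusted p = 4.47e-06). *Srebf2* had 13.6, 10.6 and 9.07 in NL and 19, 19.8 and 17.3 in vehicle tumors (0.72 ± 0.15, adjusted p = 0.00119). The pair therefore changed places, with *Srebf2* at 10.9 to 17.8% of their summed level in NL and 59.5 to 65.3% in vehicle tumors. *Insig1* fell from 246, 119 and 148 FPKM to 37.6, 22.4 and 31.3 (-2.41 ± 0.36), and *Insig2* from 59.7, 66.4 and 61.4 to 20.6, 15.4 and 26.5 (-1.57 ± 0.33). *Scap* had 22.9, 23.9 and 15.4 FPKM in NL and 13.7, 14.6 and 14.1 in vehicle tumors (-0.50 ± 0.17, adjusted p = 0.0197), a call that was lost without NL replicate 1 or 2 or vehicle replicate 1.

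**Figure D2:**
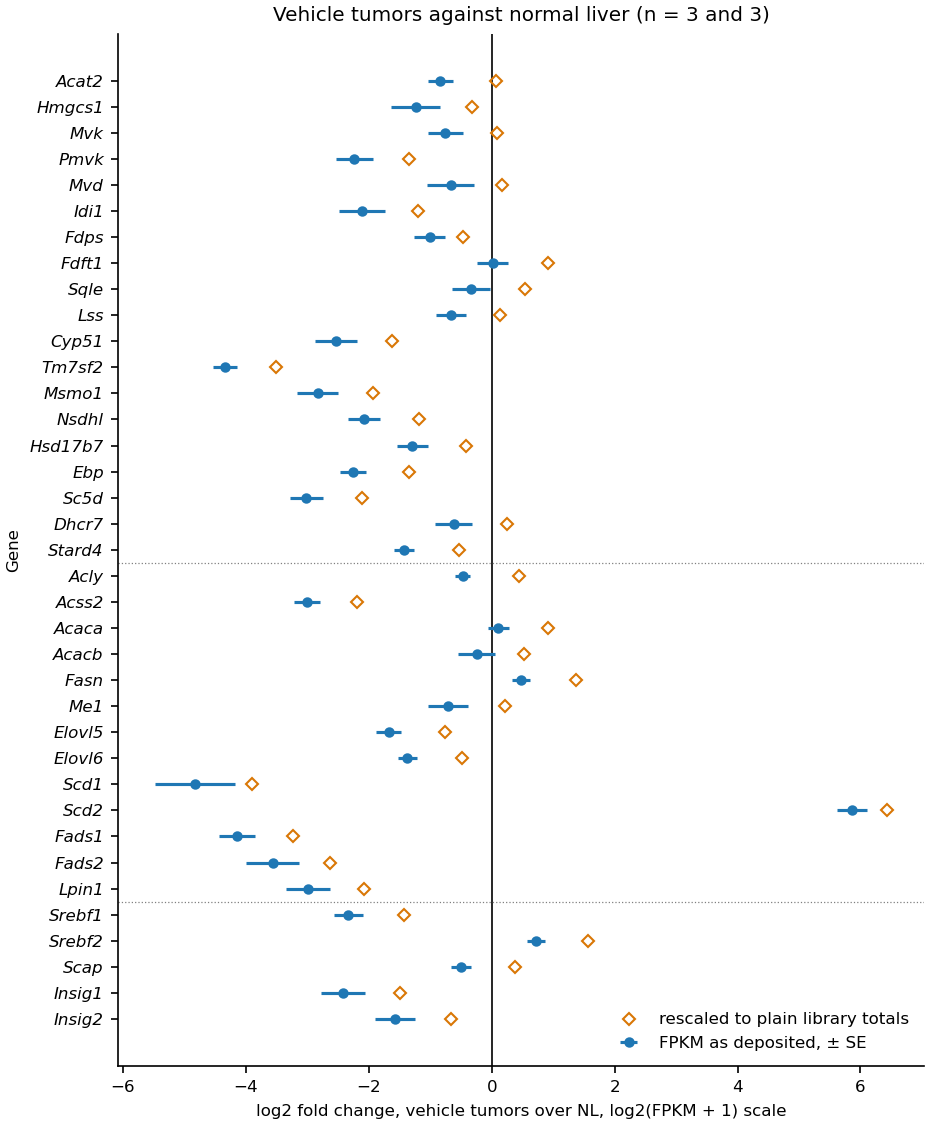
Log2 fold change of vehicle tumors over NL on the log2(FPKM + 1) scale for each of the 37 genes, by arm, with n = 3 libraries a group. Filled points use the FPKM as deposited, bars are SE, and open diamonds use libraries rescaled to plain read totals, which lie to the right for every gene and, of the genes called on the deposited scale, cross 0 for *Acat2*, *Mvk*, *Lss*, *Acly* and *Scap*.

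The size of this contrast depends on the scaling between NL and tumors. On plain library totals the median log2 fold change over all genes moved from 0.06 to 0.62, the sterol arm had 9 genes lower and 1 higher (*Fdft1*) with a median of -0.46, and the fatty acid arm had 7 lower and 4 higher (*Acly*, *Acaca*, *Fasn* and *Scd2*) with a median of -0.48. The share of all genes called on plain totals was not counted, so these counts cannot be set beside a background. The 9 sterol genes lower on both scales were *Pmvk*, *Idi1*, *Cyp51*, *Tm7sf2*, *Msmo1*, *Nsdhl*, *Ebp*, *Sc5d* and *Stard4*. The sign turned positive for *Acat2*, *Mvk*, *Lss*, *Acly* and *Scap*, while *Srebf1* (-1.43) and *Insig1* (-1.49) stayed called lower and *Srebf2* (1.56) higher, and *Insig2* (-0.66) lost its call. *Mvd*, *Dhcr7*, *Sqle*, *Acacb* and *Me1*, which had not passed, also turned positive. Cell makeup moved with the contrast as well. All 10 hepatocyte markers fell, from a summed 96276 to 114534 FPKM in NL to 5384 to 8426 in vehicle tumors with none at 0, and 8 of 8 genes of proliferating cells rose, from 2.15 to 7.28 to 119 to 141. Macrophage markers went from 220 to 266 FPKM in NL to 60.4 to 96.0 in vehicle tumors, with 6 of 8 lower and 1 higher, and endothelial markers from 54.1 to 64.6 to 13.8 to 20.7, with 4 of 8 lower. Biliary markers summed to 44.0 to 47.5 FPKM in NL and 41.9 to 96.7 in vehicle tumors, with 4 of 5 tested higher, and markers of stellate cells and fibroblasts to 67.3 to 95.7 and 28.1 to 62.8, with 4 of 8 higher and 4 lower. Erythroid markers went from 289 to 653 FPKM in NL to 35.2 to 88.5 in vehicle tumors, with 4 of 5 lower. Of 8 adipocyte markers 3 were in the table, and their sum went from 1245 to 2116 to 11.3 to 31.8, with 1 lower and 1 higher. That sum was nearly all *Car3* in NL, with a median of 1400 FPKM there and 22.6 in vehicle tumors. Median *Fabp4* went from 4.21 to 7 and *Plin4* from 0.691 to 0.937, so the drop in the sum is not a drop of the whole list. The part of these marker lists in the lipid gene result was not tested, and in bulk tissue fewer cells of a type and less RNA per cell cannot be told apart.

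The effect of blocking the mTOR kinase was asked by comparing MLN0128 with vehicle tumors. The sterol enzymes *Msmo1*, *Sqle*, *Cyp51*, *Nsdhl*, *Mvk* and *Hsd17b7* fell, the other 13 sterol genes did not pass, and no gene of the 37 rose. In all, 11 of 37 fell, of which 6 were sterol genes, 3 fatty acid genes and 2 regulators. Over all genes tested, 17.1% were called lower and 14.9% higher. Against a fold change of at least 1.5, which 2.13% of genes passed in either direction, *Msmo1* and *Sqle* were called.

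*Msmo1* had 10.4, 8.98 and 9.61 FPKM in vehicle tumors and 0.923, 1.32 and 1.29 with MLN0128, which came to -2.29 ± 0.33 on the log2 scale (SE, adjusted p = 0.000651). The ratio of mean FPKM was 8.21 in favor of vehicle. *Sqle* had 17.7, 17.9 and 17.6 FPKM in vehicle tumors and 4.62, 2.94 and 5.29 with MLN0128 (-1.85 ± 0.31, adjusted p = 0.00132). Both genes kept their call under every one of 24 alternatives, with log2 fold changes from -3.07 to -2.21 for *Msmo1* and from -2.08 to -1.57 for *Sqle*. For *Sqle* on the deposited scale, the vehicle tumors lay inside the NL range and MLN0128 tumors were the only group far from it. This comparison with NL depends on the scaling, since vehicle against NL ranged from -0.59 to 0.82 for *Sqle* over the alternatives. For *Msmo1* the drug came on top of the difference between tumor and liver.

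*Cyp51* had 19.1, 12.8 and 16.6 FPKM in vehicle tumors and 4.8, 5.06 and 8.32 with MLN0128 (-1.30 ± 0.35, adjusted p = 0.0147). *Nsdhl* had 9.7, 8.53 and 8.08 in vehicle tumors and 3.09, 3.09 and 4.56 with MLN0128 (-1.11 ± 0.26, adjusted p = 0.00808). *Hsd17b7* had 9.14, 10.1 and 9.27 in vehicle tumors and 5.21, 5.63 and 3.64 with MLN0128 (-0.87 ± 0.26, adjusted p = 0.0236). *Msmo1*, *Nsdhl* and *Hsd17b7* encode the enzymes that remove the C4 methyl groups. *Cyp51* removes the C14 methyl group before them, and the C14 reductase step, that of *Tm7sf2* and *Lbr*, lies in between. *Mvk*, mevalonate kinase, ranged from 4.88 to 9.25 FPKM in vehicle tumors and from 2.08 to 3.56 with MLN0128 (-1.07 ± 0.29, adjusted p = 0.0145).

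Of the 13 sterol genes that did not pass, 11 had values below 0, and the median of the arm was -0.59, beside -0.01 over all genes tested. The MLN0128 and vehicle libraries were apart for 10 of the 19, with MLN0128 lower, as for 23.4% of all genes. *Hmgcs1* (-0.76 ± 0.39), *Mvd* (-0.84 ± 0.38) and *Idi1* (-0.72 ± 0.37) were of a size with *Hsd17b7* but had wider errors. These errors pool the spread of all 4 groups, and NL ranged from 41.7 to 139 FPKM for *Hmgcs1*, 7.47 to 29.1 for *Mvd* and 30.1 to 122 for *Idi1*. The MLN0128 and vehicle libraries themselves were apart for *Mvd* and *Idi1* and overlapped for *Hmgcs1*. *Fdft1* (0.27 ± 0.26), *Tm7sf2* (0.00 ± 0.19) and *Stard4* (-0.11 ± 0.16) were close to vehicle. *Fdps* was at 0.496 to 0.92 FPKM in vehicle tumors and 0.0557 to 0.167 with MLN0128, where it rested on 5 to 20 reads a library, and did not pass (-0.57 ± 0.25, adjusted p = 0.102). The number of sterol genes that fell was 11 without NL replicate 1, which shares in the estimate of spread, and 3 without vehicle replicate 1 or without MLN0128 replicate 1. With the 2 MLN0128 libraries that hold *Xist* RNA left out, the 1 left is assumed to vary like the other groups, and 2 sterol genes fell.

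In the fatty acid arm the genes that fell with MLN0128 were 3 of 13 (23.1%), near the 17.1% of all genes tested. For 4 of 13 the MLN0128 libraries all lay below the vehicle libraries, as for 23.4% of all genes. The median was -0.35, beside -0.01 over all genes tested. *Me1* had 35.9, 54.4 and 50 FPKM in vehicle tumors and 21, 17.1 and 17.9 with MLN0128 (-1.26 ± 0.32, adjusted p = 0.0121). *Acacb* had 5.49, 2.6 and 7.59 in vehicle tumors and 2.44, 1.69 and 1.25 with MLN0128 (-1.09 ± 0.30, adjusted p = 0.0164). *Scd2* had 166, 111 and 150 in vehicle tumors and 79.2, 121 and 63.5 with MLN0128 (-0.72 ± 0.25, adjusted p = 0.0444), with 1 MLN0128 library inside the vehicle range, and it lost its call under 15 of 24 alternatives. *Scd1* had 12.2, 15.4 and 16.7 FPKM with MLN0128 and did not pass (-0.57 ± 0.65), since vehicle replicate 2 lay below all 3. Chain-building enzymes had small values, 0.22 ± 0.15 for *Fasn*, 0.05 ± 0.17 for *Acaca* and -0.03 ± 0.12 for *Acly*. Without vehicle replicate 1 or 3, a single gene of this arm fell. On a wider list of 23 other fatty acid genes, read below, the share called lower was larger, at 13 of 23 (56.5%).

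Among the regulators, *Srebf2* had 19, 19.8 and 17.3 FPKM in vehicle tumors and 12.1, 11.5 and 13.5 with MLN0128 (-0.56 ± 0.15, adjusted p = 0.0156). On the deposited scale these MLN0128 values lay inside the NL range of 9.07 to 13.6. That scale raises NL values against tumor values, so this overlap depends on the scaling and is not shown to be a return to the liver level. *Insig2* had 20.6, 15.4 and 26.5 in vehicle tumors and 7.43, 7.44 and 8.3 with MLN0128 (-1.29 ± 0.33, adjusted p = 0.0118). Neither gene had overlapping groups. *Srebf2* lost its call in 6 of 24 alternatives, among them without MLN0128 replicate 1, and *Insig2* in 4, among them without vehicle replicate 3. *Srebf1* had 13.8, 25.6 and 11.1 FPKM with MLN0128 (0.42 ± 0.24), *Scap* 20.5, 21.6 and 14.9 (0.39 ± 0.17) and *Insig1* 16.8, 29.8 and 10 (-0.76 ± 0.36), and none of the 3 passed. Some cell type markers were called lower in this contrast, where 17.1% of all genes tested were. Hepatocyte markers summed to 2583 to 5832 FPKM with MLN0128 and 5384 to 8426 with vehicle, with 3 of 10 lower, macrophage markers to 25 to 36.4 against 60.4 to 96.0, with 2 of 8 lower, and biliary markers to 16.7 to 32.9 against 41.9 to 96.7, with 3 of 5 tested lower. Among the other lists, 1 of 5 erythroid and 1 of 3 adipocyte markers were lower. None of the 8 proliferation, 8 endothelial, 8 stellate and fibroblast markers or the 1 lymphocyte marker tested was called. The part of these lists in the sterol result was not tested.

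**Figure D3:**
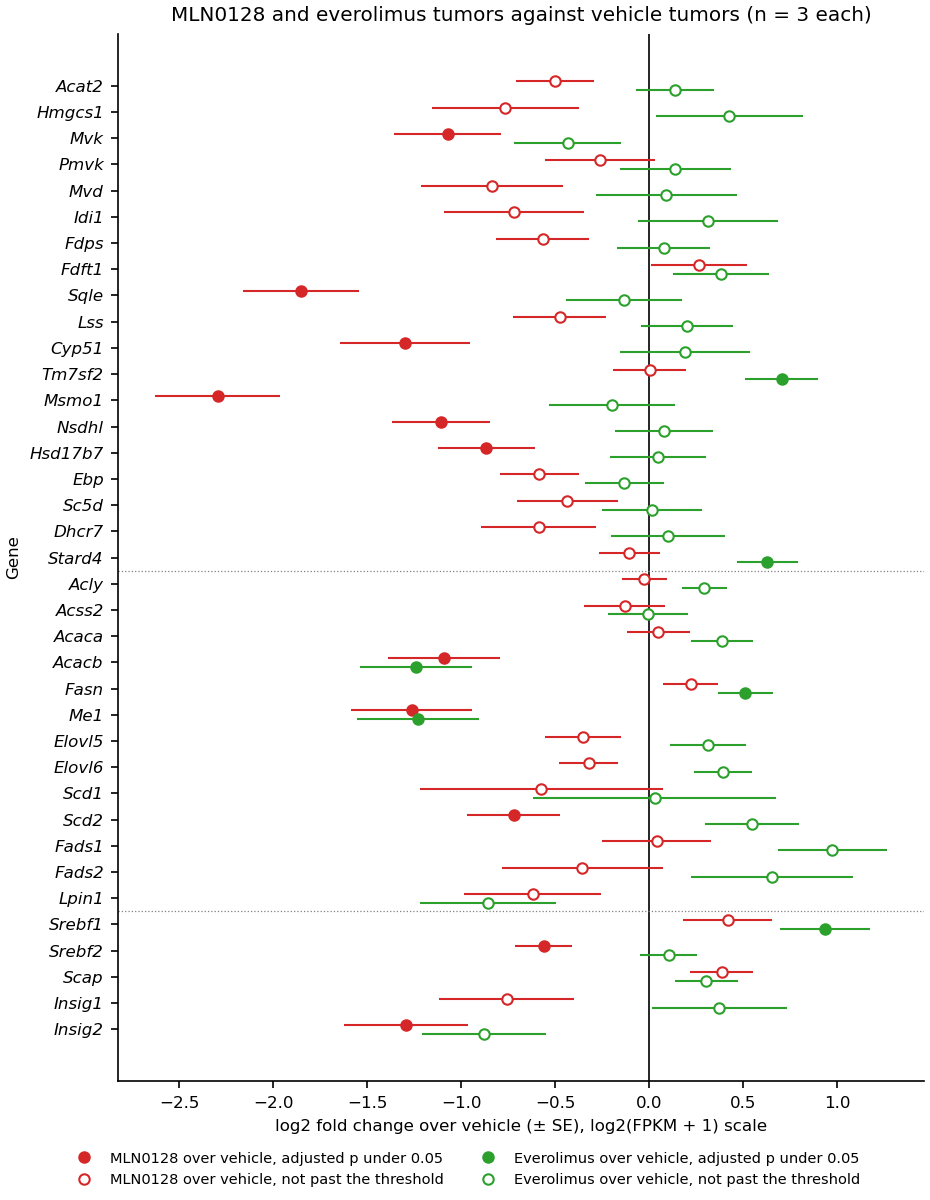
Log2 fold change (± SE) of MLN0128 tumors (red) and everolimus tumors (green) over the same 3 vehicle tumors for each gene, on the log2(FPKM + 1) scale. Filled circles passed an adjusted p of 0.05. *Msmo1* and *Sqle* lie farthest to the left for MLN0128 and near 0 for everolimus, while *Acacb* and *Me1* lie near -1.2 for either drug.

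The same genes were then compared between everolimus and vehicle tumors, which share the vehicle libraries with the contrast above. Few genes differed: 4 rose, 2 fell and 31 did not pass, where 3.78% of all genes tested were called higher and 6.05% lower. None of the 37 passed against a fold change of at least 1.5, which 0.604% of all genes did. In the sterol arm *Tm7sf2* and *Stard4* rose and none fell. *Tm7sf2* went from 1.71, 0.712 and 1.17 FPKM to 2.2, 3.09 and 2.33 (0.70 ± 0.19, adjusted p = 0.0425). *Stard4* went from 16.4, 17.6 and 17.4 FPKM to 25.2, 26 and 30.1 (0.63 ± 0.16, adjusted p = 0.0318). In these 2 sterol genes and 5 fatty acid genes all everolimus libraries lay above all vehicle libraries, as for 17.6% of all genes. The median of the sterol arm was 0.10. *Msmo1* had 5.63, 11.5 and 8.66 FPKM with everolimus (-0.20 ± 0.33), *Sqle* 12.2, 18.3 and 18.5 (-0.13 ± 0.31) and *Cyp51* 12.6, 23.9 and 20.4 (0.19 ± 0.35), and in each the vehicle values lay inside or close to this range. Everolimus replicate 1 was the lowest of its group for 15 of 19 sterol genes. Neither sterol call held without vehicle replicate 2 or 3 or everolimus replicate 1 or 3, and 1 held without NL replicate 3, vehicle replicate 1 or everolimus replicate 2.

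In the fatty acid arm *Fasn* rose and *Acacb* and *Me1* fell with everolimus. *Me1* had 9.69, 28.2 and 25 FPKM with everolimus (-1.23 ± 0.32, adjusted p = 0.0364), and *Acacb* 1.03, 1.35 and 2.19 (-1.24 ± 0.30, adjusted p = 0.0249), all below the vehicle range. No fatty acid gene was called lower without vehicle replicate 1, vehicle replicate 3 or everolimus replicate 1, and 1 was without NL replicate 1 or vehicle replicate 2. *Fasn* ranged from 56.9 to 65.5 FPKM with everolimus, above the 37.6 to 45.8 of vehicle tumors (0.51 ± 0.15, adjusted p = 0.0489), and it was no longer called in 10 of the 12 fits that left out 1 library, those without NL replicate 1 or 2, any vehicle library, MLN0128 replicate 1 or 2, or any everolimus library. *Fads1* had 11.5, 26.4 and 21.3 FPKM with everolimus and did not pass (0.97 ± 0.29, adjusted p = 0.0559). *Scd2* had 200, 161 and 269 (0.55 ± 0.25) and *Scd1* 12.9, 21.5 and 41.8 (0.03 ± 0.65). *Srebf1* was the regulator that passed, with 23, 24.9 and 21.5 FPKM against 12.6, 10.5 and 11.8 (0.93 ± 0.24, adjusted p = 0.0318). It lost its call in 8 of 24 alternatives, which include leaving out any 1 vehicle or everolimus library. *Srebf2* (17.1, 20.2 and 23.6 FPKM), *Scap* (18.2, 17.7 and 17.1), *Insig1* (34.4, 48.9 and 34.8) and *Insig2* (5.98, 21.3 and 9.03) did not pass. Of the marker lists, 2 of 10 hepatocyte markers (4891 to 9454 FPKM summed) and 3 of 5 biliary markers (21.3 to 66.5) were lower with everolimus and 2 of 5 erythroid markers (107 to 131) higher, and their part in these results was not tested.

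**Figure D4:**
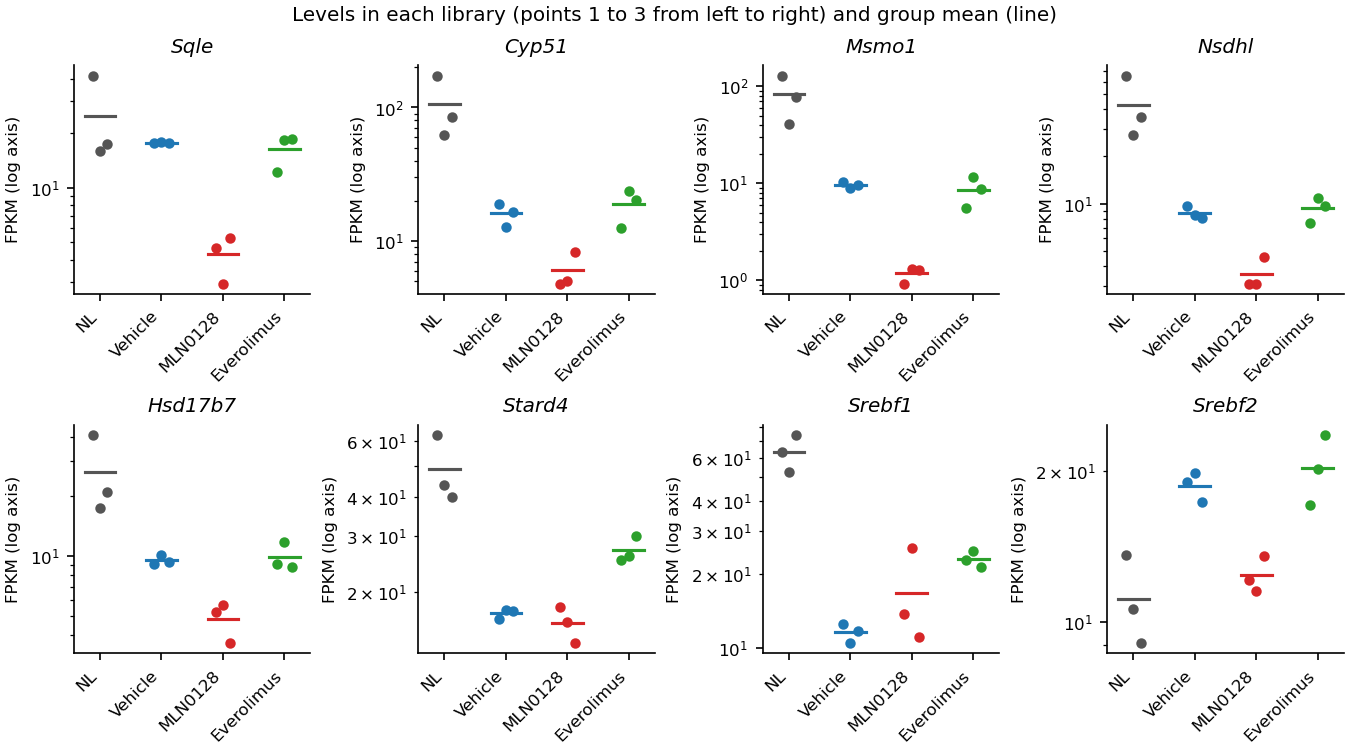
FPKM on log axes in each of the 12 libraries for 6 sterol genes and the *Srebf* pair, with replicates 1 to 3 from left to right and lines at the group mean. In *Sqle*, *Cyp51*, *Msmo1*, *Nsdhl* and *Hsd17b7* the MLN0128 points lie below every other group, and for *Srebf1* NL lies above every tumor.

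The difference between the drugs was tested directly by setting MLN0128 against everolimus tumors at the same dose and schedule. All 19 sterol genes had lower means on the log scale with MLN0128, and 7 were called lower: *Msmo1*, *Sqle*, *Cyp51*, *Nsdhl*, *Hsd17b7*, *Stard4* and *Tm7sf2*. The share of all genes called lower was 5.54% and of those called higher 3.99%. The median of the arm was -0.70, beside -0.03 over all genes tested, and in 16 of 19 the MLN0128 libraries all lay below the everolimus libraries, as for 15.2% of all genes. *Msmo1* (-2.10 ± 0.33, adjusted p = 0.00766), *Sqle* (-1.72 ± 0.31, adjusted p = 0.0111) and *Cyp51* (-1.49 ± 0.35, adjusted p = 0.0248) differed most. *Nsdhl* (-1.18 ± 0.26), *Hsd17b7* (-0.91 ± 0.26), *Stard4* (-0.73 ± 0.16) and *Tm7sf2* (-0.70 ± 0.19) followed. The call for *Tm7sf2* was lost in 14 of 24 alternatives. For *Stard4* and *Tm7sf2* the everolimus libraries had risen over vehicle, while MLN0128 libraries had not passed against it. On the sum of the 19 genes, MLN0128 tumors held 163, 197 and 161 FPKM and everolimus tumors 268, 322 and 311.

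The everolimus and MLN0128 groups differed for 2 of 13 fatty acid genes. *Scd2* was lower with MLN0128 (-1.27 ± 0.25, adjusted p = 0.0138), as was *Elovl6*, with 9.77, 7.51 and 6.84 FPKM against 11.4, 13.7 and 16.4 (-0.71 ± 0.16, adjusted p = 0.0199). The median of the arm was -0.34, and 7 of 13 had MLN0128 libraries wholly below. *Srebf2* was lower with MLN0128 (-0.66 ± 0.15, adjusted p = 0.0233) but lost its call in 9 of 24 alternatives, among them without MLN0128 replicate 1 or 2 or everolimus replicate 3. *Insig1* had the widest gap among regulators without passing (-1.13 ± 0.36, adjusted p = 0.0696). *Me1* (-0.04 ± 0.32, SE) and *Acacb* (0.15 ± 0.30, SE), which fell with each drug, did not differ between them beyond their errors. None of the 37 passed against a fold change of at least 1.5, as 0.0417% of all genes did. The number of sterol genes called depended on the fit. With only these 2 groups in the fit, or without the 2 *Xist*-holding libraries, 0 of 19 were called. It was 13 without NL replicate 1, 4 without MLN0128 replicate 2 or everolimus replicate 2, and 1 without MLN0128 replicate 1 or everolimus replicate 3. In the fatty acid arm it was 1 without MLN0128 replicate 1 and 0 without everolimus replicate 3. Erythroid markers summed to 16.1 to 40.6 FPKM with MLN0128 and 107 to 131 with everolimus, with 4 of 5 lower, and macrophage markers to 25 to 36.4 against 46.6 to 146, with 2 of 8 lower. Their part in these differences was not tested. Of the hepatocyte markers 0 of 10 differed between the drugs at this threshold.

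Pairs of related genes show how the makeup of the pathway varied among groups. The *Scd2* share of *Scd1* plus *Scd2* was 79.2 to 88.7% in MLN0128 tumors and 86.6 to 93.9% in everolimus tumors, inside or near the 77.4 to 95.6% of vehicle tumors, so every tumor group stood far from the 0.198 to 0.226% of NL. The summed level of both genes was 530 to 757 FPKM in NL, 116 to 211 in vehicle tumors, 80.2 to 136 under MLN0128 and 183 to 311 under everolimus. The *Srebf2* share of the *Srebf* pair was 31.0 to 54.9% in MLN0128 tumors and 42.6 to 52.3% in everolimus tumors, below the 59.5 to 65.3% of vehicle tumors in all 6 drug libraries. *Srebf2* was the member called lower with MLN0128, and *Srebf1* was the member called higher with everolimus. The *Acacb* share of *Acaca* plus *Acacb* was 24.8 to 46.8% in vehicle tumors, 15.7 to 19% with MLN0128, and it was 8.22 to 16.6% under everolimus. *Fads2* made up 68.4 to 72.1% of the *Fads1* plus *Fads2* level in NL and 71.9 to 83.6% in vehicle tumors, so the ranges of this pair met.

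**Figure D5:**
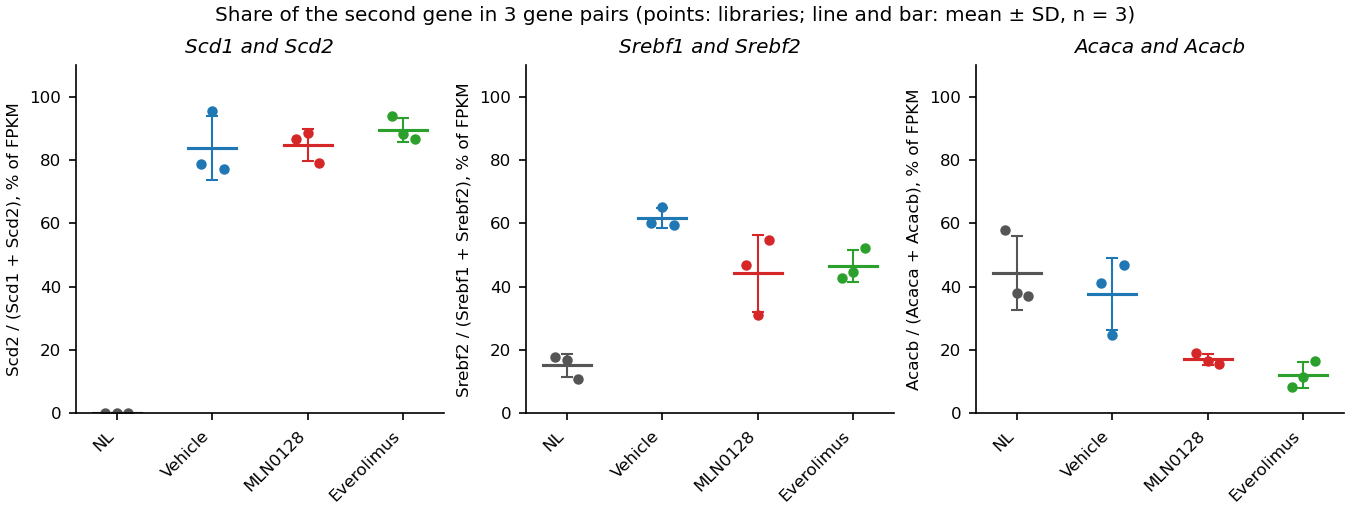
Share of the second gene in the summed FPKM of a pair, in percent, for *Scd1* and *Scd2*, *Srebf1* and *Srebf2*, and *Acaca* and *Acacb*. Points are libraries and bars are mean ± SD (n = 3). *Scd2* goes from under 1% in NL to at least 77.4% in all tumors, and *Acacb* is lower with either drug than in vehicle tumors.

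Other genes of the same pathways were read from wider lists, picked with earlier results of these data known. Of 22 other sterol genes, covering uptake, export, esterification and SREBP processing, 10 fell and 8 rose in vehicle tumors against NL, 7 fell and 3 rose with MLN0128, and 1 fell and 1 rose with everolimus. Over all genes tested 33% fell and 36% rose in the first contrast, 17.1% and 14.9% in the second, and 6.05% and 3.78% in the third, so the 8 of 22 that rose in vehicle tumors and the everolimus counts were near these shares. *Soat1*, which esterifies cholesterol, rose from 0.578, 0.602 and 0.499 FPKM in NL to 6.18, 9.87 and 7.97 in vehicle tumors (2.51 ± 0.35). The exporters *Abcg5* (-2.30 ± 0.44) and *Abca1* (-2.19 ± 0.18) and the sterol sensor *Nr1h3* (-2.03 ± 0.29), also known as LXR alpha, fell. Of 23 other fatty acid genes, 18 fell and 3 rose in vehicle tumors, 13 fell and 1 rose with MLN0128, and 2 fell and 1 rose with everolimus, the last again near the shares of all genes. The fatty acid genes that fell were 78.3% of this list in vehicle tumors and 56.5% with MLN0128, above the 33% and 17.1% of all genes tested. *Aacs* is on both wider lists and is counted in each, and it was called lower in vehicle tumors and with MLN0128. The elongase *Elovl3* had 115, 78.2 and 57.7 FPKM in NL and at most 0.0318 in vehicle tumors. *Thrsp*, a lipogenic protein of liver and fat, had 1120, 1030 and 1400 FPKM in NL and 44.7, 15.9 and 38.4 in vehicle tumors (-5.23 ± 0.57). The elongase *Elovl7* went the other way, from 0.116, 0.203 and 0.0239 FPKM to 11.8, 11.7 and 11.3 (3.50 ± 0.13). *Elovl2* (-2.62 ± 0.19), *Agpat2* (-2.22 ± 0.21) and *Acsl5* (-2.01 ± 0.11), which act in elongation, glyceride synthesis and acyl-CoA synthesis, also fell. Between the drugs, 1 of 22 and 7 of 23 of these genes were lower with MLN0128, where 5.54% of all genes were, and none was higher, where 3.99% were.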

How the data were processed

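RNA was extracted from 9 tumors and 3 normal livers, and poly(A) capture (or rRNA removal) libraries were sequenced and counted per gene by the authors. The deposited values are FPKM per gene symbol, given to 3 significant digits and scaled by the authors with library factors. The submitters' processing notes name GRCm38 and FastQC 0.11.7, and the aligner is not given in the sources used here. Sources differ on the length of treatment (3 weeks in the labels, 3 days elsewhere). Because the table holds FPKM and not counts, log2(FPKM + 1) was fitted with limma 3.58.1 (R 4.3.3) over all 12 libraries in 1 model with an intensity trend, for the 14397 genes that reached 0.5 FPKM in 3 or more libraries. P-values were adjusted by the Benjamini-Hochberg method over all genes tested. The study tested against a minimum fold, for which limma's treat test against 1.5 was the counterpart. Reads were recovered from FPKM and exon length (98.2 to 98.8% of low values came out whole within 0.1 read, where chance gives 20%). GENCODE M21 gave annotation and near-identical copies. In the table, 22 names were date-like. Motif searches used Python 3.11.15. Nothing says whether replicates share a litter, and p-values set each group difference against the spread between these samples. The replicate numbers were checked for pairing: of 18 same-number pairs across groups 1 had a correlation of deviations over 0.1 (range -0.289 to 0.148), so no block was used. Sample columns were matched to samples by name, and none was left out. Every one of the 37 genes may be named. Library values are given for regulators, for genes passing treat and for the 4 largest changes of each comparison. Of the wider lists at most 10 genes passing treat are named by size of change, with *Aacs* and *Lbr* named besides. The 37 genes and the lists were chosen with earlier results of these data known. Alternatives were another pseudocount, no filter, TPM, quantile and plain-total scaling, fewer groups, no trend, 2 fold thresholds, a replicate block, voom on recovered reads, libraries without *Xist* RNA, and leaving out each library.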

Additional observations from a re-analysis of the deposited data

How the results depend on the processing

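Scaling mattered most for vehicle tumors against normal liver. The share of all genes called was counted on the deposited scale only, so counts on other scales have no background beside them. With TPM scaling the sterol arm had 8 genes lower and 1 higher and the fatty acid arm 5 lower and 4 higher, and on plain library totals 9 and 1, and 7 and 4. Among genes called on the deposited scale, direction reversed for *Acat2* (0.33 with TPM scaling, 0.0685 on plain totals), *Mvk* (0.34 and 0.0836), *Lss* (0.40 and 0.13), *Scap* (0.65 and 0.38) and *Acly* (0.71, 0.44 and, with quantile normalization, 0.0859). Treat or a fold above 1.5 left 1 fatty acid gene higher. For MLN0128 against vehicle, 10 sterol genes were lower with only the 2 groups in the fit, 2 with treat and 2 without *Xist*-holding libraries, quantile normalization gave 1 gene higher in each arm, and 0 (treat) or 1 (without *Xist*-holding libraries) fatty acid gene was lower. For everolimus against vehicle, 1 sterol gene was higher with TPM scaling or only 2 groups, and 0 with treat. The fatty acid arm had 0 higher with pseudocount 0.1, TPM, 2 groups, treat, a fold above 1.5 or without *Xist*-holding libraries, and 1 lower with TPM or without those libraries and 0 with 2 groups or treat. For MLN0128 against everolimus, TPM gave 4 sterol and 1 fatty acid genes lower, only 2 groups or treat 0 and 0, and libraries without *Xist* RNA 0 and 1. Leaving out 1 library at a time gave 12 to 16 sterol and 8 to 9 fatty acid genes lower and 1 to 2 fatty acid genes higher against normal liver, 3 to 11 sterol and 1 to 4 fatty acid genes lower with MLN0128, 0 to 2 sterol and 0 to 1 fatty acid genes higher and 0 to 2 fatty acid genes lower with everolimus, and 1 to 13 sterol and 0 to 3 fatty acid genes lower between drugs. The cause was not tested. A replicate block, although the numbers did not pair samples, left 0 sterol and 0 fatty acid genes higher with everolimus and 5 sterol genes lower between drugs, and moved no other count of calls in an arm by over 1.5 times. Without an intensity trend no gene of the 37 changed its call. Depth limits *Fdps* most, at 5 to 203 reads a library.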
